A study of Homo sapiens with 9 samples.

Results

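The genes of sterol and fatty acid synthesis were followed in HCT116 colon cancer cells that express an isoform of the Tazarotene-induced gene 1 (TIG1, gene symbol RARRES1). The list holds 30 genes, namely enzymes that build cholesterol and fatty acids, the proteins that control their transcription, and a sterol carrier. Each gene was read on its brightest probe set, the one with the highest mean log2 intensity over the 9 arrays, among probe sets that the array's annotation gives to that gene alone. This left 27 of the 30 genes, out of 19775 genes measured in this way, and all 27 passed the filter on dim probe sets, as did 13352 genes in all. FDFT1 has no entry in the annotation used here. CYP51A1 and FADS1 are annotated only on probe sets shared with another gene (2 and 3 probe sets), and no value is given for these genes.

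All 9 arrays come from stable HCT116 lines made with the GeneSwitch system, in which the regulatory protein encoded by the pSwitch plasmid turns on an inserted gene when the cells receive mifepristone (MFP). TIG1A stable cells carry pTIG1A-V5, TIG1B stable cells carry pTIG1B-V5, and control stable cells carry the vector without TIG1. Every culture, the controls included, had 5 nM MFP for 24 h in serum-containing medium before total RNA was taken, and 3 cultures per line were hybridised to Affymetrix HG-U133 Plus 2.0 arrays. Each group is 1 stable clone, so differences between the clones and effects of the induced isoform cannot be told apart, and no array of cells without MFP enters these groups. The samples are RNA of whole cultures, in which fewer cells that express a gene and less RNA per cell cannot be told apart. The deposited values are linear signal intensities scaled to a common target. RARRES1 itself, on its probe set 206392_s_at, was below the array median at 4.24 ± 1.19 (SD, n = 3) in the controls, and had 62881 ± 4179 where TIG1A and 39336 ± 4496 where TIG1B was induced, in the direction of the labels.

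Cells make cholesterol from acetyl-CoA through mevalonate, farnesyl diphosphate, squalene and lanosterol, and make long-chain fatty acids from acetyl-CoA and malonyl-CoA. Both routes are driven by the transcription factors of the genes SREBF1 and SREBF2. Their precursors lie in the membrane of the endoplasmic reticulum, bound to the escort protein SCAP. When membrane sterols are low, SCAP carries the precursors to the Golgi apparatus, where proteases release the active factor. When sterols are abundant, the INSIG proteins hold SCAP back. INSIG1 is itself transcribed under this control, and the route is known for its fast reply to the sterols that serum brings to cultured cells.

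The 9 arrays had median intensities of 59.9 to 73.9, GAPDH 3'/5' ratios of 0.899 to 1.01 and actin ratios of 1.12 to 1.27, and no pair of arrays was identical. Of 9 colon epithelial markers, 6 in control cells and 5 in either TIG1 line lay above the median of their array on all 3 arrays. Epithelial EPCAM, KRT8, KRT18, KRT19 and CDH1 were bright on all 9 arrays. VIL1, LGALS4, CEACAM5 and CDX1 each lay below the array median on at least 1 of the 9 arrays, and CDX1 did not pass the filter. The leukocyte (3 measured), adipocyte (4) and hepatocyte (3) markers had no member above the array median on all 3 arrays of any group, and the endothelial list had 1 of 3, PECAM1. Of 5 fibroblast markers only COL1A1 lay above it, and the summed intensity of the list was 544 to 876 in control, 1428 to 1827 in TIG1A and 984 to 1069 in TIG1B cells. COL1A1 rose in TIG1A cells (log2 fold change 1.48, adjusted p = 0.0169 by limma). Among the epithelial markers KRT19 fell in both lines, by limma (-0.66 and -0.66, adjusted p = 0.0267 and 0.0435), and CDH1 rose in TIG1A cells (0.59, adjusted p = 0.0481). The part of these markers in the results on lipid genes was not tested.

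The 3 control arrays differed from one another in the lipid genes, and both lines are compared with them. The range over the 3 control arrays, as the highest minus the lowest log2 intensity, had a median of 0.71 over the 27 genes and 0.52 over all 13352 genes. In TIG1A cells the medians were 0.23 and 0.38, and in TIG1B cells 0.26 and 0.39. Set beside 7699 genes that were at least as bright as the dimmest of 26 lipid genes (all but FADS2), the 26 had a median range of 0.70 in control cells against 0.39. The highest control array exceeded the lowest by over 2-fold for 7 of the 27 genes, and for 20.3% of all genes. INSIG1 had the widest control range at 5.15-fold, followed by SCD at 2.62-fold and MVD at 2.42-fold. These genes act at separate points, as INSIG1 retains SCAP, SCD desaturates fatty acids and MVD decarboxylates a mevalonate derivative.

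The differences between control cultures mostly ran in one direction. Control replicate 3 was the lowest of the 3 control arrays for 20 of the 27 genes, against 35.4% of all genes, and the highest for 0 of the 27, against 31.5% of all genes. Control replicate 1 was the highest for 15 of the 27 genes, against 41.1% of all genes. When each gene was centred on its mean over the 9 arrays, the median deviation of the 27 genes was 0.10, -0.058 and -0.31 (log2) on control replicates 1, 2 and 3. It was 0.044, 0.030 and 0.047 on the TIG1A arrays and 0.11, 0.20 and 0.12 on the TIG1B arrays. The corresponding medians over all genes lay between 0.0023 and 0.067. Within the list, the deviation of control replicate 3 was -0.66 for the 8 enzymes from squalene to cholesterol, -0.31 for the 7 genes of the mevalonate pathway, -0.41 for the 5 control genes and -0.060 for the 6 fatty acid genes. For the 5 control genes, control replicate 2 was also low, at -0.45. By these medians the low level of control replicate 3 was measured mainly in the sterol genes, as the map of members by array shows. SCD, a fatty acid gene, was nevertheless at -0.94 on that array.

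**Figure D1:**
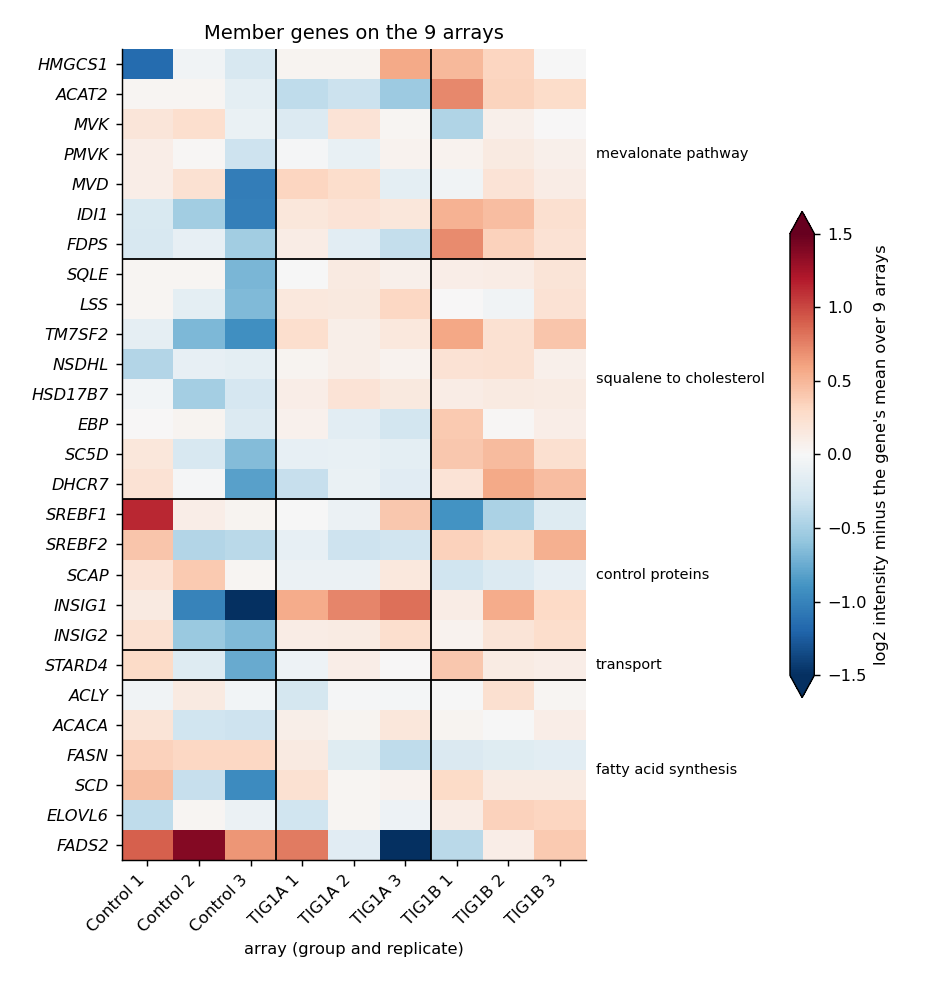
Member genes (rows, grouped by role) on the 9 arrays (columns, by group and replicate). The colour gives the log2 intensity of the brightest probe set minus the gene's mean over the 9 arrays, with values beyond 1.5 drawn in the end colours. The column of control replicate 3 is mostly blue in the sterol genes, with INSIG1 the darkest there, and SREBF1 and FASN run against most of the list.

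**Figure D2:**
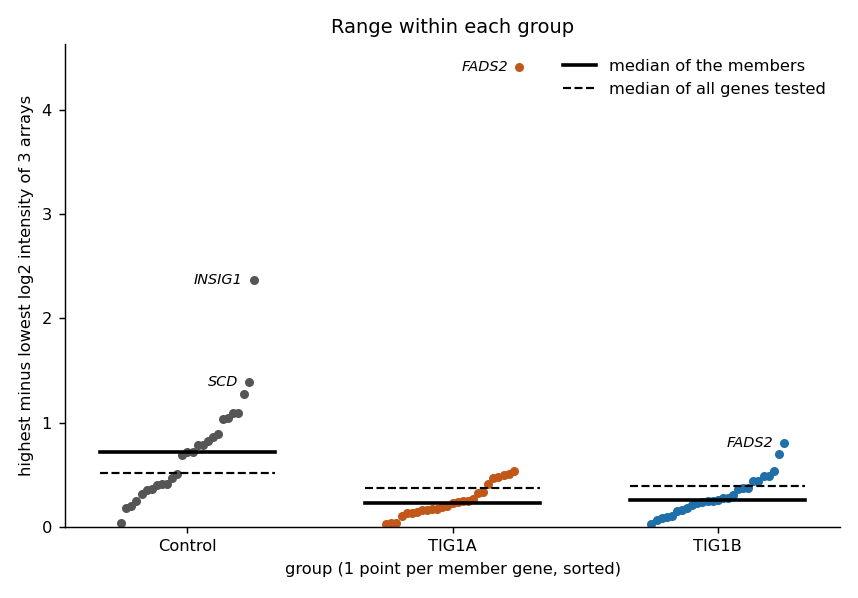
Range within each group, as the highest minus the lowest log2 intensity of 3 arrays, with 1 point for each of the 27 member genes, sorted by size. Solid lines are the medians of the members (0.71, 0.23 and 0.26 in control, TIG1A and TIG1B cells) and dashed lines those of all 13352 genes (0.52, 0.38 and 0.39). The member medians lie above the dashed line in control cells and below it in both TIG1 lines.

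No lipid gene passed the test on its brightest probe set in any comparison. In TIG1A against control cells, limma called 0 of 27 genes higher, where 3.39% of all genes were higher, and 0 lower, where 3.62% were lower (adjusted p under 0.05). In TIG1B against control cells it called 0 higher (0.637% of all genes) and 0 lower (1.21%), and between the lines 0 higher in TIG1A cells (0.359%) and 0 lower (0.225%). Both lines were compared with the same 3 control arrays. The smallest adjusted p was 0.0659 for TIG1A and 0.0588 for TIG1B against control cells, both for IDI1, and 0.0863 between the lines, for ACAT2. The moderated F test over the 3 groups also called 0 of 27, against 4.67% of all genes, with a smallest adjusted p of 0.0527 for ACAT2.

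At an unadjusted p under 0.05, limma had 5 genes higher and 2 lower in TIG1A than in control cells, where 13.2% of all genes were higher and 14.5% lower. For TIG1B cells it had 11 higher and 3 lower, against 8.61% and 11.2% of all genes. Between the lines, 0 were higher in TIG1A cells and 5 were lower (7.68% and 7.32% of all genes). The methods' t-test, which is taken gene by gene, had 6, 10 and 6 genes at an unadjusted p under 0.05 in these comparisons (23.9%, 17.1% and 19.7% of all genes) and 0 in each after Benjamini-Hochberg adjustment. The median log2 fold change over the 27 genes was 0.16 in TIG1A and 0.41 in TIG1B cells against the shared controls, where all genes had medians of -0.030 and -0.011. Values lay above 0 for 18 of 27 genes in TIG1A cells (47.8% of all genes) and for 22 of 27 in TIG1B cells (48.9%). Both medians were lower without control replicate 3, at -0.015 and 0.16, with 13 and 21 of 27 values above 0.

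In several genes the arrays of a TIG1 line and of control cells did not overlap, although none was called. In 7 genes (25.9%) all 3 TIG1A arrays lay above all 3 control arrays, against 16.3% of all genes, and in 2 (7.41%) they lay below, against 17.9%. The 7 were HMGCS1, IDI1, LSS, TM7SF2, NSDHL, HSD17B7 and INSIG1, and the 2 were ACAT2 and FASN. For TIG1B cells, 10 genes (37%) lay above and 4 (14.8%) below the control arrays, against 12.2% and 14.6% of all genes. The 10 were HMGCS1, ACAT2, IDI1, FDPS, SQLE, TM7SF2, NSDHL, HSD17B7, SC5D and ELOVL6, and the 4 were SREBF1, SCAP, FASN and FADS2. The share above the controls exceeded that of all genes in both lines, and the share below them was under that of all genes in TIG1A cells and near it in TIG1B cells. Between the lines, all TIG1A arrays lay below all TIG1B arrays in 10 genes (37%) and above them in 3 (11.1%), against 14.2% of all genes in either direction. The 10 were ACAT2, PMVK, IDI1, FDPS, SC5D, DHCR7, SREBF2, STARD4, ACLY and ELOVL6, and the 3 were SREBF1, SCAP and INSIG1.

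**Figure D3:**
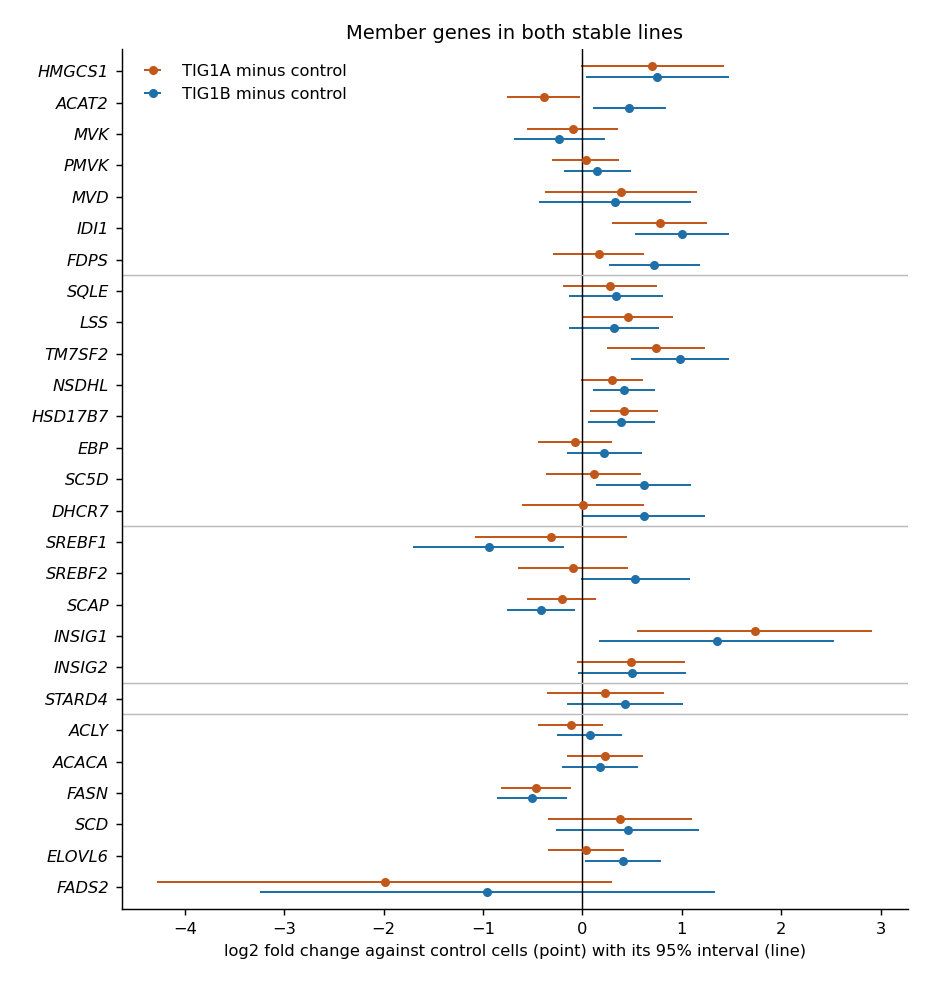
Log2 fold change of each member gene against control cells, as a point with its 95% interval (line) from limma on 3 arrays per group, for TIG1A (orange) and TIG1B (blue) cells, which share the controls. No point passed the test after adjustment over all probe sets. INSIG1 has the highest values (1.74 and 1.35), FASN lies below 0 in both lines, and ACAT2 has opposite signs.

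Among the genes of the mevalonate pathway, IDI1 had the smallest p against control cells in both lines. IDI1 (chromosome 10, 1039152 to 1056704 in GRCh38) isomerises isopentenyl diphosphate, the building block of all isoprenoids. Its intensity on the probe set 208881_x_at was 5458, 4456 and 3159.6 on the control arrays, 7242, 7385 and 7245 on the TIG1A arrays and 9198, 8856 and 7581 on the TIG1B arrays. All 6 TIG1 arrays lay above the highest control array, and the TIG1A arrays were nearly equal. The log2 fold change was 0.78 in TIG1A cells (95% interval 0.30 to 1.26, adjusted p = 0.0659 by limma) and 1.00 in TIG1B cells (95% interval 0.53 to 1.48, adjusted p = 0.0588). A further probe set of IDI1, 204615_x_at, gave 0.60 and 0.90 (adjusted p = 0.143 and 0.0882 by limma). It had 6190, 4036 and 3420 on the control arrays and 6085, 7171 and 6770 on the TIG1A arrays, so these groups overlapped. Its TIG1B arrays all lay above the controls. A dimmer one, 242065_x_at, had 102, 241 and 200.1 on the control arrays, 12.3, 151 and 225 on the TIG1A arrays and 114, 131 and 196 on the TIG1B arrays, with overlapping groups and log2 fold changes of -1.19 and -0.25 (adjusted p = 0.495 and 0.917 by limma), of opposite sign to the brightest. All 3 carry the suffix of probe sets that may cross-hybridise to related transcripts. Without control replicate 1, IDI1 passed the test in both lines (adjusted p = 0.026 and 0.0313 by limma), with log2 fold changes of 0.96 and 1.18, and without control replicate 3 these were 0.56 and 0.79. IDI1 is among the genes that the study selected for TIG1B cells on these same arrays, so its value is not independent evidence.

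HMGCS1, the cytosolic synthase that forms HMG-CoA, had intensities of 558, 1194 and 1049 on the control arrays, 1276, 1284 and 1844 on the TIG1A arrays and 1743, 1552 and 1239.8 on the TIG1B arrays. On this brightest probe set the TIG1 arrays lay above the controls, but control replicate 1 was the lowest of the 9 arrays. The same array was the highest control for INSIG1 and SCD. The log2 fold changes were 0.70 and 0.75, with 95% intervals of -0.015 to 1.42 and 0.035 to 1.47 (adjusted p = 0.208 and 0.251 by limma). The further probe set of HMGCS1, 221750_at, had 956, 1093 and 625 on the control arrays, so control replicate 3 was the lowest there. Its TIG1A and control arrays overlapped, and its log2 fold changes were 0.52 and 0.49 (adjusted p = 0.231 and 0.332 by limma). MVK, PMVK and MVD, which phosphorylate and decarboxylate mevalonate and its products, had log2 fold changes of -0.10, 0.036 and 0.39 in TIG1A cells and -0.23, 0.15 and 0.33 in TIG1B cells. All 6 intervals of these kinases and this decarboxylase included 0. The dimmer probe sets of MVK, 204056_s_at and 215649_s_at, gave 0.22 and 0.24 in TIG1A and 0.45 and 0.20 in TIG1B cells. These are of opposite sign to the brightest, and the groups overlapped.

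Of the 4 mevalonate pathway genes in which all TIG1A arrays lay below all TIG1B arrays, ACAT2 and FDPS had the largest differences between the lines, followed by IDI1 (-0.22) and PMVK (-0.12). ACAT2, the cytosolic thiolase that condenses acetyl-CoA at the head of the pathway, had intensities of 2983, 3000.0 and 2656 on the control arrays, 2251, 2341 and 2002 on the TIG1A arrays and 4827, 3695 and 3558 on the TIG1B arrays. Every TIG1A array was below, and every TIG1B array above, all 3 control arrays. Against control cells the log2 fold changes were -0.39 and 0.47 (adjusted p = 0.179 and 0.174 by limma), and TIG1A minus TIG1B was -0.86 (95% interval -1.23 to -0.49, adjusted p = 0.0863). FDPS, which makes farnesyl diphosphate for sterols and for protein prenylation, had intensities of 4812, 5252 and 3979 on the control arrays, 6173, 5115 and 4463 on the TIG1A arrays and 9352, 7272 and 6654 on the TIG1B arrays. The TIG1B arrays were above all others, and TIG1A and control arrays overlapped. The log2 fold change was 0.72 in TIG1B cells (adjusted p = 0.114 by limma) and 0.16 in TIG1A cells (adjusted p = 0.646), with a difference between the lines of -0.56 (adjusted p = 0.29).

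The 8 enzymes from squalene to cholesterol had medians of 0.29 in TIG1A and 0.40 in TIG1B cells for the log2 fold change, with 7 and 8 values above 0. TM7SF2 (chromosome 11, 65111872 to 65116230), a sterol reductase of the step after lanosterol demethylation, had the largest values of the 8. Its intensity was 642, 442 and 373 on the control arrays, 835, 748 and 787 on the TIG1A arrays and 1056, 823 and 942 on the TIG1B arrays. All TIG1 arrays exceeded all control arrays, and control replicates 2 and 3 were the lowest of the 9. The log2 fold change was 0.74 (95% interval 0.24 to 1.23, adjusted p = 0.0813 by limma) in TIG1A and 0.98 (95% interval 0.49 to 1.48, adjusted p = 0.0667) in TIG1B cells. Without control replicate 1 the adjusted p was 0.0188 and 0.0247 by limma. TM7SF2 too was selected by the study for TIG1B cells from these arrays.

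NSDHL and HSD17B7 act together in removing the methyl groups of lanosterol and had smaller values with narrow spread in the TIG1 lines. NSDHL had intensities of 778, 966 and 948 on the control arrays, 1085, 1115 and 1091 on the TIG1A arrays and 1229, 1238 and 1112 on the TIG1B arrays. HSD17B7 had 2118, 1531 and 1837 on the control arrays, 2337, 2514 and 2414 on the TIG1A arrays and 2362, 2401 and 2373 on the TIG1B arrays. In both genes all 6 TIG1 arrays were above the controls on these brightest probe sets. The log2 fold changes were 0.30 and 0.42 for NSDHL (adjusted p = 0.219 and 0.16 by limma). On the further probe set of NSDHL, 215093_at, TIG1A and control arrays overlapped. There the log2 fold changes were 0.43 and 0.50 (adjusted p = 0.219 and 0.23 by limma). For HSD17B7 they were 0.42 and 0.39 (adjusted p = 0.131 and 0.213 by limma), on a probe set of the cross-hybridising kind, and a pseudogene of HSD17B7 can share its signal.

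SC5D and DHCR7, which act near the end of cholesterol synthesis, were higher in TIG1B than in TIG1A cells at the level of single arrays. SC5D had intensities of 2703, 2029.6 and 1525 on the control arrays, 2206, 2219 and 2164 on the TIG1A arrays and 3191, 3329.6 and 2835 on the TIG1B arrays. DHCR7 had 2965, 2513 and 1449 on the control arrays, 2006, 2379 and 2277 on the TIG1A arrays and 2939, 3795 and 3519 on the TIG1B arrays. No TIG1A array reached a TIG1B array in either gene, and the control arrays overlapped those of either line for DHCR7. TIG1A minus TIG1B was -0.50 for SC5D and -0.62 for DHCR7 (95% intervals -0.98 to -0.022 and -1.23 to -0.0039, adjusted p = 0.356 and 0.374 by limma). The further probe set of DHCR7, 201791_s_at, had 1461, 1999.8 and 1063 on the control arrays, 1641, 1408 and 1521 on the TIG1A arrays and 2870.2, 3069.9 and 2566 on the TIG1B arrays. There every TIG1B array was above all other arrays, with 0.95 for TIG1B minus control and -0.90 for TIG1A minus TIG1B on the log2 scale (adjusted p = 0.0855 and 0.167 by limma). EBP, a sterol isomerase, and LSS, which closes the sterol rings, had differences between the lines of -0.29 and 0.15. LSS was higher on all TIG1A than on all control arrays, with a log2 fold change of 0.46 (adjusted p = 0.192 by limma). On 202735_at of EBP all TIG1 arrays lay above all controls, by 0.36 and 0.61 (adjusted p = 0.424 and 0.266 by limma), where the brightest gave -0.074 and 0.22. Its dimmer probe sets, 213789_at and 231320_at, had overlapping groups. Between the lines, LSS gave 1.05 on 211018_at (adjusted p = 0.28 by limma) and 0.13 on 211019_s_at.

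SQLE, the epoxidase that forms the oxygenated precursor of lanosterol, passed the test in TIG1A cells on 1 of its dimmer probe sets, which was not the brightest. On the brightest one, 209218_at, its intensity was 4221, 4235 and 2576 on the control arrays, 4132, 4552 and 4346 on the TIG1A arrays and 4421, 4479 and 4733 on the TIG1B arrays, and the log2 fold changes were 0.28 and 0.34 (adjusted p = 0.438 and 0.417 by limma). Control replicate 3 was low and the other 8 arrays were close to each other. On the dimmer probe set 213577_at the intensity was 508, 294 and 469 on the control arrays, 768, 966 and 914 on the TIG1A arrays and 817, 901 and 950.1 on the TIG1B arrays. There SQLE rose in TIG1A cells by 1.09 on the log2 scale (adjusted p = 0.0347 by limma) and was higher by 1.11 in TIG1B cells (adjusted p = 0.0562). The probe set 213562_s_at gave 0.32 and 0.36. The dimmest, 1557352_at, had overlapping groups and gave -0.25 and -0.27 (adjusted p = 0.649 and 0.671 by limma), of opposite sign to the brightest.

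**Figure D4:**
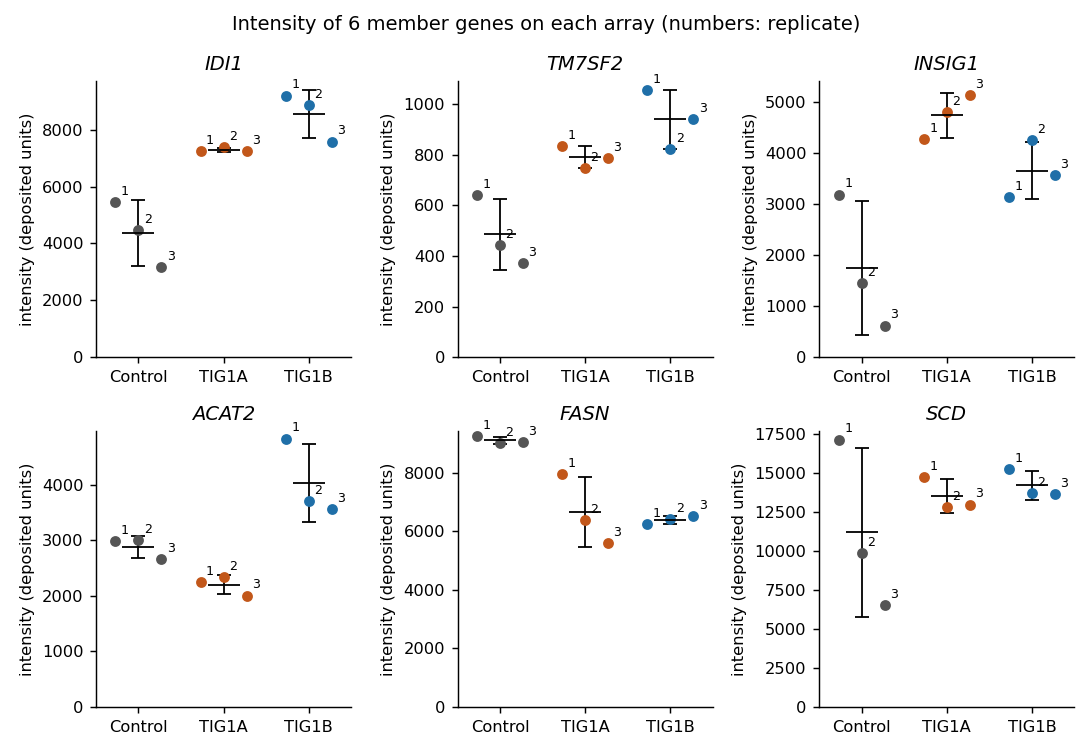
Intensity (deposited linear units, axes from 0) of IDI1, TM7SF2, INSIG1, ACAT2, FASN and SCD on each array, with the replicate number beside each point and the mean and SD of 3 arrays as bars. IDI1 and TM7SF2 lie above the controls on all 6 TIG1 arrays, FASN below them, ACAT2 below in TIG1A and above in TIG1B cells. INSIG1 and SCD are highest on control replicate 1 and lowest on control replicate 3 among the controls.

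The genes of the control proteins differed in sign. INSIG1 (chromosome 7, 155297878 to 155310235), chosen here after its values were seen because of its control range, had intensities of 3184, 1449.8 and 618 on the control arrays, 4267, 4802 and 5135 on the TIG1A arrays and 3137, 4245 and 3573 on the TIG1B arrays. The TIG1A arrays were above all control arrays, while the lowest TIG1B array was just under control replicate 1. The log2 fold change was 1.74 in TIG1A cells (95% interval 0.55 to 2.92, adjusted p = 0.0854 by limma) and 1.35 in TIG1B cells (95% interval 0.17 to 2.53, adjusted p = 0.217). Without control replicate 3 these were 1.14 and 0.75, and without control replicate 1 they were 2.32 and 1.94, where both passed the test (adjusted p = 0.0158 and 0.0405 by limma). Among the controls, the other 2 probe sets of INSIG1 were likewise highest on replicate 1 and lowest on replicate 3, at 2243, 1118 and 526 and 4117, 1764 and 885. Their log2 fold changes were 0.91 and 0.91 in TIG1A cells and 0.83 and 0.63 in TIG1B cells. On both of them the control arrays overlapped those of either line. INSIG2, its relative, had 869, 505 and 468 on the control arrays, 804, 809 and 882 on the TIG1A arrays and 767, 852 and 889 on the TIG1B arrays. The log2 fold changes of INSIG2 were 0.49 and 0.50 (adjusted p = 0.237 and 0.307 by limma).

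SREBF1 and SREBF2, the genes of the driving transcription factors, had opposite signs in TIG1B cells on their brightest probe sets. SREBF1 had intensities of 1884, 923 and 885 on the control arrays, 858, 811 and 1143 on the TIG1A arrays and 462, 622 and 752 on the TIG1B arrays. All TIG1B arrays were below all others, and control replicate 1 was above every other array. The log2 fold change of SREBF1 was -0.94 in TIG1B cells (95% interval -1.71 to -0.18, adjusted p = 0.186 by limma) and -0.32 in TIG1A cells (adjusted p = 0.585). On its dimmer probe set, 1558875_at, the control arrays overlapped those of either line. There it was -0.75 in TIG1B and 0.063 in TIG1A cells (adjusted p = 0.38 and 0.942 by limma). SREBF2 had 788, 434 and 446 on the control arrays, 544, 477 and 484 on the TIG1A arrays and 749, 720.4 and 855 on the TIG1B arrays, with all TIG1B arrays above all TIG1A arrays and a difference between the lines of -0.63 (adjusted p = 0.318 by limma). Its probe set 201247_at gave -0.59 in TIG1B against control cells where the brightest gave 0.53, so the probe sets of this gene disagree in sign. Between the lines, 201247_at gave -0.017 (adjusted p = 0.99 by limma) and the dimmer 242748_at gave -1.02 (adjusted p = 0.743). On both, the TIG1A and TIG1B arrays overlapped. SCAP, the escort protein, had log2 fold changes of -0.21 and -0.41 (adjusted p = 0.418 and 0.197 by limma). STARD4, which carries cholesterol between membranes, had 0.23 and 0.43 (adjusted p = 0.603 and 0.409).

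Of the genes of fatty acid synthesis, FASN was the one whose arrays lay below all control arrays in both lines. FASN (chromosome 17, 82078338 to 82098236) encodes the multi-enzyme synthase that elongates acetyl-CoA to palmitate. Its intensity was 9254, 9033 and 9048 on the control arrays, 7957, 6398 and 5603 on the TIG1A arrays and 6246, 6426 and 6528 on the TIG1B arrays. The highest control array was 1.025 times the lowest, all 6 TIG1 arrays were below them, and TIG1A replicate 1 was the nearest. The log2 fold change was -0.47 (95% interval -0.82 to -0.12, adjusted p = 0.107 by limma) in TIG1A and -0.51 (95% interval -0.86 to -0.16, adjusted p = 0.136) in TIG1B cells. FASN was thus of opposite sign to the median of the list in both lines.

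SCD, which introduces the double bond of oleate, depended on the probe set. On the brightest one, 200832_s_at, its intensity was 17122, 9867 and 6539.7 on the control arrays, 14731, 12811 and 12962 on the TIG1A arrays and 15250.1, 13672 and 13642 on the TIG1B arrays. The control arrays spanned both lines, and the log2 fold changes were 0.38 and 0.45 (adjusted p = 0.483 and 0.479 by limma). On 211162_x_at, a probe set that may cross-hybridise, the intensity was 1880.3, 1654 and 1621 on the control arrays, 2879, 2426 and 2603 on the TIG1A arrays and 3104, 3179 and 3280.2 on the TIG1B arrays. The highest control array there was 1.16 times the lowest, and SCD rose in both lines, by 0.62 (adjusted p = 0.0369 by limma) and 0.89 (adjusted p = 0.0276) on the log2 scale. The study selected this probe set for TIG1B cells on these arrays, so its call is not independent evidence. The remaining probe sets, 200831_s_at and 211708_s_at, gave 0.23 and 0.53 in TIG1A and 0.35 and 0.64 in TIG1B cells.

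The other fatty acid genes were ACLY, ACACA, ELOVL6 and FADS2. ACLY, which makes cytosolic acetyl-CoA from citrate, and ACACA, which carboxylates it to malonyl-CoA, had log2 fold changes of -0.12 and 0.23 in TIG1A and 0.074 and 0.18 in TIG1B cells. All 4 of their intervals on these brightest probe sets included 0. On 210337_s_at of ACLY, all TIG1A arrays lay below all controls. Its log2 fold change there was -0.44 (95% interval -0.73 to -0.14, adjusted p = 0.0831 by limma), and -0.19 in TIG1B cells with overlapping groups. ACLY had -0.34 and -0.022 on 201127_s_at, and ACACA had -0.022 and 0.21 on 214358_at, in TIG1A and TIG1B cells. ELOVL6, an elongase of saturated fatty acids, was 1277, 1698 and 1576 on the control arrays, 1357, 1704 and 1585 on the TIG1A arrays and 1799.9, 2118 and 2093 on the TIG1B arrays, with all TIG1B arrays above all others and a log2 fold change of 0.41 (adjusted p = 0.243 by limma). The dimmer probe sets of ELOVL6, 210868_s_at and 227491_at, gave -0.31 and 0.094 in TIG1A and 0.10 and 0.40 in TIG1B cells. On both, the control arrays overlapped those of either line. FADS2, a desaturase of polyunsaturated fatty acids, was the dimmest of the 27, with 161, 224 and 137 on the control arrays, 148, 76.4 and 6.97 on the TIG1A arrays and 65.0, 92.1 and 113 on the TIG1B arrays. Its log2 fold changes of -1.99 and -0.96 have 95% intervals of -4.28 to 0.30 and -3.24 to 1.33, and the first turns on the single TIG1A value of 6.97.

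Of 33 further probe sets of the members, 29 were kept, in 16 genes. The 2 called ones in TIG1A cells were those of SQLE and SCD given above, and that of SCD was the 1 called in TIG1B cells. Of all 29977 kept probe sets, 2.86% were called higher in TIG1A and 0.701% higher in TIG1B cells. Between the lines limma called 0 of the 29. At an unadjusted p under 0.05, limma had 5 of the 29 higher and 1 lower in TIG1A cells (11.4% and 13.6% of all kept probe sets), 7 higher and 0 lower in TIG1B cells (7.88% and 10.7%), and 1 in each direction between the lines (6.67% and 6.59%). The sign was that of the brightest probe set for 19 of 29 in TIG1A, 20 of 29 in TIG1B and 25 of 29 in the comparison of the lines.

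The promoters of the members were read to see which letters they share, as a description that used no array value. Sequences were those of RefSeq in GRCh38.p14, from 250 bases before to 50 bases after the start site, for 24 of the 27 genes, and ACAT2, SQLE and FASN had no entry. On either strand, with sites of different motifs counted even where they overlap, the sterol regulatory element TCACNCCAC was in 1 of 24 (4.17%) against 1.13% of all 35116 promoters. The NF-Y box CCAAT was in 16 (66.7%) against 34.6%, the GC box GGGCGG in 22 (91.7%) against 45%, and the E-box CACGTG in 4 (16.7%) against 7.26%. The 35116 promoters were not limited to genes that passed the filter on dim probe sets, whereas all 24 members passed it. Whether these shares are particular to the lipid genes was not tested. SREBF2 was the gene whose window held these letters of the sterol regulatory element, and the E-box was in LSS, SC5D, SCAP and INSIG1. Only the exact letters were searched, and only in this window. A gene counted without a motif may therefore hold a variant of it, or a site elsewhere. The windows of 3 genes are shown, from their plus strand and without the bases after the start site, INSIG1 for its control range (chr7:155297628-155297877), TM7SF2 for its values in both lines (chr11:65111622-65111871) and SREBF2 for the element (chr22:41832855-41833104). Capitals mark the E-box in INSIG1 (55 bases before the start site), the reverse complement of CCAAT in all of them (170, 74 and 106 bases) and, upstream of the latter, the sterol regulatory element in SREBF2. GC boxes are left in lower case.
INSIG1: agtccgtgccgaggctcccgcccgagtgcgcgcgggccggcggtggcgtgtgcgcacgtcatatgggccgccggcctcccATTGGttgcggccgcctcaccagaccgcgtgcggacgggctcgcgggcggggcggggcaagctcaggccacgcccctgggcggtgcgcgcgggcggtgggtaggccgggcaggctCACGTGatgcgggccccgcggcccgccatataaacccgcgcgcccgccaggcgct
TM7SF2: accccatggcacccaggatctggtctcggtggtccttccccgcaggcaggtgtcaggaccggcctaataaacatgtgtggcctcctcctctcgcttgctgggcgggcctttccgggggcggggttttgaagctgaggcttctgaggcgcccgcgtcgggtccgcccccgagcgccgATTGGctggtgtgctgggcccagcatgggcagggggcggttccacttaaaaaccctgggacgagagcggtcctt
SREBF2: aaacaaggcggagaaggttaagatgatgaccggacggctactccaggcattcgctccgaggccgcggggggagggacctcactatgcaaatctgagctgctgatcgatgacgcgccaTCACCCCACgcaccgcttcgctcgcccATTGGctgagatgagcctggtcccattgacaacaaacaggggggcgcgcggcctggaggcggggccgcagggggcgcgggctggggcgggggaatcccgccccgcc

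Other genes of lipid metabolism were counted from lists of 82 genes, of which 68 were kept. In TIG1A cells 4 rose and 2 fell by limma, with a median change of 0.14 (log2), and in TIG1B cells and between the lines 0 passed, with medians of 0.099 and 0.076. All genes had 3.39% higher and 3.62% lower in TIG1A cells by the same test. At an unadjusted p under 0.05, limma had 13 of the 68 higher and 4 lower in TIG1A cells (13.2% and 14.5% of all genes), 12 higher and 3 lower in TIG1B cells (8.61% and 11.2%), and 8 higher and 6 lower in TIG1A than in TIG1B cells (7.68% and 7.32%). DGAT1, which completes triglyceride synthesis, rose from 1831 ± 100.4 (SD, n = 3) in control to 3756 ± 265 in TIG1A cells, or 1.04 on the log2 scale (SE 0.17, adjusted p = 0.021 by limma), and was 1875 ± 381 in TIG1B cells. AGPAT2, an acyltransferase of the same route, rose by 0.54 (adjusted p = 0.048). ELOVL7, an elongase, rose by 0.97 (adjusted p = 0.0144 by limma) and GGPS1, which makes the geranylgeranyl group for prenylation, by 0.76 (adjusted p = 0.0456). The genes that fell were SCARB1, the receptor of high-density lipoprotein, with -0.79 (adjusted p = 0.0251 by limma), and FADS3, a desaturase relative, with -0.79 (adjusted p = 0.0262).

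By list, the 5 kept further sterol enzymes had medians of 0.10 and 0.48 in TIG1A and TIG1B cells with 0 calls, and MSMO1, a methyl oxidase of the cholesterol route, had 0.54 and 0.74 (adjusted p = 0.217 and 0.165 by limma). The 10 genes of the isoprenoid branch had medians of -0.013 and -0.030, and the 7 genes of sterol sensing and proteolysis 0.088 and 0.064. Sterol traffic and efflux (9 genes) had 0.032 and -0.092, and fatty acid elongation, desaturation and precursors (14) had 0.13 and 0.021. Fatty acid activation (4) had 0.38 and 0.36, triglyceride and phospholipid synthesis (9) 0.16 and 0.26, and fatty acid oxidation (10) 0.33 and 0.15.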

How the data were processed

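The authors' software for these arrays was the GeneChip Operating System (GCOS), and the deposited intensity of a probe set is its globally scaled, linear signal. The scaling was checked, since the 2% trimmed mean was 500.1 on each array. The description of the series gives MFP in micromolar where the labels give 5 nM, which was taken. The members and lists were chosen with earlier results of these data known.

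Apart from 62 array controls, probe sets entered the fit if 2 or more of the 3 arrays in any group were at or above that array's 50th percentile (29977 of 54675). Of all probe sets, 41097 have 1 gene symbol, 1801 several and 11777 none. Intensities under 1 were set to 1 and log2-transformed, and limma 3.58.1 in R 4.3.3 was fitted to the 9 arrays with 1 mean per group (6 residual degrees of freedom, prior median 1.84). Benjamini-Hochberg adjustment ran over all kept probe sets at 0.05. The fit was tested on simulated data. The p-values measure the spread between cultures of 1 clone, and precision is limited by the number of arrays.

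All members were reported on the brightest probe set, with array values for those whose groups did not overlap in both lines and for IDI1, TM7SF2 and SCD, which the study's tables hold. Array values of further members, and probe sets, were singled out after they were seen. From each further list the called genes were named. Alternatives were quantile normalisation, median centring, an offset of 50, no filter and a 75th percentile filter (14825 probe sets), the 6 arrays of a comparison, the replicate number as a block, eBayes with trend and robust options, the methods' t-test, the mean over probe sets, and each array left out. Some genes of these routes are not reported here.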

Additional observations from a re-analysis of the deposited data

Results flagged for a closer look

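ACAT2 was the 1 member of 27 whose TIG1A arrays all lay below, and whose TIG1B arrays all lay above, the 3 control arrays. The difference between the lines, TIG1A minus TIG1B, was -0.86 on the log2 scale and did not pass the test after adjustment (adjusted p = 0.0863 by limma, 3 arrays per line). Leaving out 1 array moved it between -0.95 and -0.73, with adjusted p from 0.0822 to 0.234.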

How the results depend on the processing

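The count of 0 members called held in all 3 comparisons under quantile normalisation, no filter, the 6 arrays of a comparison, the mean over probe sets and the replicate block. In TIG1A against control cells the count was 1 under median centring (IDI1), 2 with an offset of 50 (IDI1, INSIG1), 5 with the 75th percentile filter (IDI1, TM7SF2, HSD17B7, INSIG1 and, lower, FASN), 4 with eBayes trend and robust options (IDI1, TM7SF2, INSIG1, FASN) and 6 by the unadjusted t-test. For TIG1B it was 2 with the offset (IDI1, TM7SF2), 4 with the 75th percentile filter and 4 with the eBayes options (both IDI1, FDPS, TM7SF2, FASN), and 10 by the unadjusted t-test. Between the lines it was 1 with that filter, 1 with those options (both ACAT2) and 6 by the unadjusted t-test. Leaving out each array gave counts of 0 to 4 (TIG1A), 0 to 6 (TIG1B) and 0 to 0 (between the lines), the highest both without control replicate 1 (IDI1, TM7SF2, INSIG1, INSIG2 in both, and SC5D and SREBF2 in TIG1B cells). The cause was not tested. By the unadjusted t-test, 23.9%, 17.1% and 19.7% of all genes passed in the 3 comparisons. For the other settings the share of all genes called was not counted. A higher count of members there cannot be told apart from a higher count over all genes. The median log2 fold change lay between -0.015 and 0.22 in TIG1A and between 0.16 and 0.46 in TIG1B cells, the lowest without control replicate 3 and the highest without control replicate 1, and between -0.17 and -0.091 for TIG1A minus TIG1B. Median centring gave 0.33 and 0.55 against control cells, and moved the median of all genes to 0.13 in both. For single members, 827 values kept sign and call under the other settings, 46 became called with the same sign and 15 uncalled ones changed sign. With an array left out these were 690, 10 and 29. The 46 include the 6, 10 and 6 values of the unadjusted t-test, which passed at p under 0.05 without adjustment. With the replicate number as a block, 0 members were called in each comparison. Of 9 correlations between same-numbered arrays, 1 exceeded 0.1 (range -0.037 to 0.19), that of replicate 1 of TIG1A and of TIG1B cells. Those arrays also had the highest GAPDH 3'/5' ratios, 1.005 and 1.006. Differently numbered arrays of the TIG1 lines had correlations of -0.126 to 0.0895. Whether the numbers pair the cultures cannot be told from these values. With 3 arrays per group, the log2 changes of INSIG1 and FADS2 have intervals over 2 units wide.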

Other observations

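The 12 nearest measured genes on each side of every member (fewer near chromosome ends) were set beside it, as values without a test, since each line is 1 clone. Their median log2 fold changes lay between -0.37 (around IDI1, 17 genes) and 0.16 (around HSD17B7) in TIG1A cells, and between -0.37 (around EBP) and 0.24 (around SC5D) in TIG1B cells. Around IDI1 they were -0.37 and -0.24 in TIG1A and TIG1B cells, where IDI1 itself had 0.78 and 1.00. Around TM7SF2 they were -0.35 and 0.11, against 0.74 and 0.98, and around INSIG1 -0.037 and -0.025, against 1.74 and 1.35. Around FASN they were 0.044 and -0.076, against -0.47 and -0.51.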
